A study of Mus musculus with 20 samples.

Results

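The genes described here are chemokines, a leukocyte adhesion molecule and regulators of inflammation and cell death: Ccl2, Ccl7, Cxcl1, Cxcl12, Icam1, Nfkbia, Tnfaip8, Casp1, Fas and Xiap. They were chosen by name, with earlier results of these data known. Of the 10, 9 were found by symbol among the 14299 genes of the count table. Cxcl12 was not analysed here.

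The cells were primary mouse ovarian surface epithelial (OSE) cells, the single layer of epithelium over the ovary. Both groups were kept in hormone-free medium with charcoal-stripped serum for 48 hours and then received 100 nM of the estrogen estradiol (E2) or, as the control, an equal volume of ethanol vehicle (0.0002% final), until day 15. Cells were isolated 1 by 1 on a microfluidic circuit (Fluidigm C1) of 20 columns, and each column gave 1 cDNA library, with control cells in columns 1 to 10 and E2-treated cells in columns 11 to 20. Per the labels, each column held cells of 1 condition, so condition and position on the circuit cannot be told apart. Nothing in the sources used here says that columns held separate cultures, so p-values measure only the spread between these libraries, which may be technical.

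The study split the cells into cluster 1, which it called E2-unresponsive, and a larger cluster it called E2-responsive. Of 589 cells, 203 were responsive control cells, 218 were responsive E2-treated cells, 126 were cluster 1 control cells and 42 were cluster 1 E2-treated cells. No cell of column 13 was analysed here, which left 10 control and 9 E2 libraries. Summed over the responsive cells of a library, the estimated counts came to between 2614371 and 3556686 in control and between 2136833 and 3903973 in E2. The sums over cluster 1 cells were smaller, at 712140 to 2223981 in control and 233982 to 771449 in the 7 E2 libraries that had at least 3 such cells. Levels are CPM, the counts of these sums scaled to a common total with TMM factors, and were not compared between genes. Levels by trajectory state are the exception and were scaled to the cells' own total, without TMM factors.

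OSE markers were present in responsive cells of both conditions, with the summed level of the 10 markers in the table at 5848 to 6862 CPM in responsive control cells and 5040 to 6468 CPM in responsive E2-treated cells. Of these, 1 was called between conditions, the keratin gene Krt19, which was higher with E2 (log2 fold change 0.62, SE 0.13, edgeR adjusted p = 0.00973). Of the 10 markers, 6 had an unadjusted edgeR p below 0.05, and the keratin genes Krt7 (-0.30), Krt8 (-0.52) and Krt18 (-0.56) and the uroplakin gene Upk1b (-0.49) had log2 fold changes below 0. DESeq2 called Krt8 lower as well. In cluster 1 control cells the 10 markers summed to 4527 to 7279 CPM, but Krt19 had a mean of 26.1 CPM and the mesothelin gene Msln 340 CPM. In responsive control cells these means were 411 and 41.5 CPM. Of 7 stromal fibroblast markers, 5 had a log2 difference of cluster 1 from responsive cells below 0. The collagen gene Col1a2 lay the other way, at 1897 CPM in cluster 1 control and 14.8 CPM in responsive control cells. These examples were chosen after their values were seen. Together the 7 fibroblast markers summed to 2745 to 4355 CPM in cluster 1 control cells and 2111 to 2532 CPM in responsive control cells. Because the genes described here are also expressed by leukocytes, markers of that lineage were checked. The 6 of 12 leukocyte markers in the table summed to 63.5 to 164 CPM in responsive control and 43.4 to 174 CPM in responsive E2-treated cells, and the mean level of Ptprc, which defines the lineage, was 1.47 and 3.02 CPM. Higher means in control and E2 were those of Cd68 (67.5 and 57.9 CPM), Cd14 (25.9 and 20.5 CPM) and Csf1r (12.8 and 20.8 CPM). Itgam (1.85 and 0.72 CPM) and Cd3e (2.41 and 3.18 CPM) were low. The 7 of 9 stromal fibroblast markers in the table summed to 2111 to 2532 CPM and 1765 to 4789 CPM, and 1 of them, Thy1, was called lower with E2 (log2 fold change -2.78, SE 0.32, edgeR adjusted p = 2.38e-06). Their part in the results below was not tested.

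NF-kB transcription factors are held in the cytoplasm by inhibitors such as the product of Nfkbia, and signals from TNF or IL1 receptors destroy the inhibitor and let the factors enter the nucleus. There they switch on chemokines, adhesion molecules and Nfkbia itself, a negative feedback loop. Inflammasomes activate caspase-1, encoded by Casp1, which matures IL1 family cytokines and can lead to pyroptosis, whereas Fas starts apoptosis from the cell surface and Xiap blocks the caspases that carry it out.

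The sequences before the gene starts are shown for 2 of the genes whose levels differed with E2, Nfkbia and Casp1, and for the chemokine gene Cxcl1, since it holds the same motif as Nfkbia. They were taken from RefSeq (GRCm38.p6), whose table held 7 of the 10 genes, and each gives the 250 bases before the start, 5′ to 3′ on the strand of the gene. Capitals mark matches to the NF-kB motif, searched as GGGRNNYYCC (R is A or G, Y is C or T, N is any base), on either strand. Nfkbia is on chromosome 12 (minus strand, chr12:55492648-55492897), Casp1 on chromosome 9 (plus strand, chr9:5298267-5298516) and Cxcl1 on chromosome 5 (plus strand, chr5:90890995-90891244).
Nfkbia: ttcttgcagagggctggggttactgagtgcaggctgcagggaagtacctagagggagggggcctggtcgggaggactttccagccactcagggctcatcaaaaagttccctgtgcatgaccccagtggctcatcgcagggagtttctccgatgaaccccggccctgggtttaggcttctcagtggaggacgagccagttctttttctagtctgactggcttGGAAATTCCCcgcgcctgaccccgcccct
Casp1: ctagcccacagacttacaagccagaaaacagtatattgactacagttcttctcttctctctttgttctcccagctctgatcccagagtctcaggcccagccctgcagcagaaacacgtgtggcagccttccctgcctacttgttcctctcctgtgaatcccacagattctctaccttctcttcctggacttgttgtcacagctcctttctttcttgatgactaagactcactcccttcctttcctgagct
Cxcl1: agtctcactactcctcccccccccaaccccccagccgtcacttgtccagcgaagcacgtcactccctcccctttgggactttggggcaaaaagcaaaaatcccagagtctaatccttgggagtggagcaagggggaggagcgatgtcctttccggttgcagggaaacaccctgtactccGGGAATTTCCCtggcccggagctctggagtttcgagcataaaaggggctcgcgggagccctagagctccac
The match in Nfkbia began 29 bases before the start, and that in Cxcl1, where matches on the 2 strands overlapped, began 71 bases before it. The motif was matched in 7.25% of the 32851 windows of this length in the table. No match to these letters was found in the windows of Casp1, Icam1, Fas, Xiap or Cxcl12. Stretches that depart from the letters, such as tggaaattcc in the Icam1 window, were not counted, so a missing match does not show that a site is absent. The estrogen response element GGTCANNNTGACC, present in 0.0639% of all windows, was matched in none of the 7 genes.

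In responsive cells, 3 of the 8 genes tested were lower with E2 and none was higher: Nfkbia, Tnfaip8 and Casp1. All 8 had a log2 fold change below 0, with a median of -0.81, beside a median of 0.02 over all genes tested. From these same data the study had already named Ccl2, Icam1, Casp1 and Fas as rising in its control cells. The shared direction is therefore a description and no independent support. A gene was called where the Benjamini-Hochberg adjusted p of edgeR's quasi-likelihood test was under 0.05 and the log2 fold change exceeded 0.5 in either direction, thresholds taken from the study's methods. By this rule 1.37% of the 10265 genes tested were called and 0.526% were called lower. The ninth gene, Cxcl1, did not pass the filter on low counts.

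**Figure D1:**
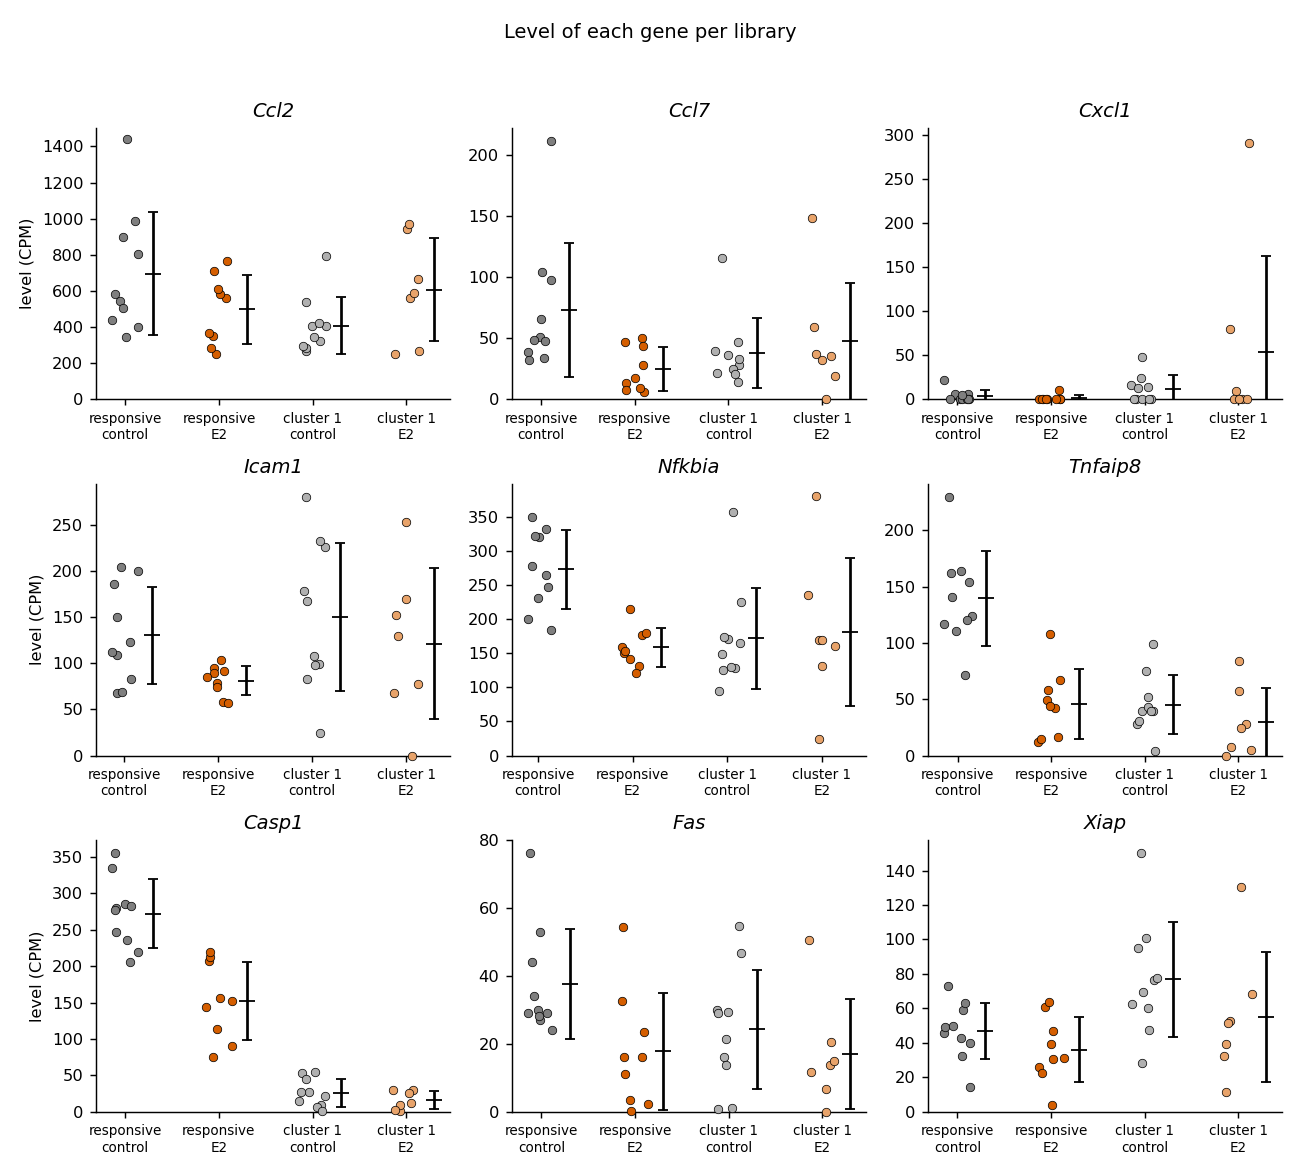
Level (CPM) of each gene per library in responsive and cluster 1 cells, control in grey and E2 in orange. Each point is 1 library, and the bar beside the points gives the mean and SD. In responsive cells 8 of 9 E2 libraries lie below every control library for Nfkbia and Tnfaip8, and Casp1 is low in cluster 1 cells of both conditions.

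Nfkbia encodes IkB-alpha, the inhibitor of NF-kB, and lies at chr12:55489410-55492647. In responsive control cells its level per library ran from 185 to 351 CPM with a median of 272, and in responsive E2-treated cells from 122 to 215 CPM with a median of 153. All but 1 of the E2 libraries, library 15, lay below every control library. The mean fell from 273 ± 57.6 CPM (SD, n = 10) to 159 ± 28.5 CPM (SD, n = 9), a log2 fold change of -0.78 (SE 0.15, edgeR adjusted p = 0.00303).

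Shares of cells with a read are given for this and the other genes as descriptions, with no test. With every cell reduced at random to 20000 reads, which no cell fell short of, 77.9% ± 10.2 (SD, n = 10) of responsive control cells per library and 51.7% ± 10.9 (SD, n = 9) of responsive E2-treated cells had at least 1 read. Without thinning the shares were 87.1% and 66.6%.

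Tnfaip8, a TNF-induced gene whose product is known as an inhibitor of apoptosis, showed the largest fold change of the 3 called genes. It lies on chromosome 18 at chr18:49979427-50107173. Its level ran from 71.2 to 229 CPM with a median of 132 in responsive control libraries, and from 11.7 to 108 CPM with a median of 43.7 in responsive E2 libraries. E2 library 17, at 108 CPM, was the one that overlapped with the controls, and control library 1, at 71.2 CPM, the one it exceeded. The mean was 139 ± 42.2 CPM (SD, n = 10) in control and 45.7 ± 30.7 CPM (SD, n = 9) with E2, and the log2 fold change was -1.60 (SE 0.33, edgeR adjusted p = 0.00675). A read of Tnfaip8 was found in 54.4% ± 12.1 (SD, n = 10) of control and 21.8% ± 12.1 (SD, n = 9) of E2-treated responsive cells at 20000 reads, and in 67.7% and 33.4% without thinning. A non-coding gene on the other strand overlaps Tnfaip8, and whether the counting used strand is not given in the sources used here.

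Casp1, at chr9:5298517-5307265, was the third gene that fell. Responsive control libraries ran from 206 to 355 CPM with a median of 278, and responsive E2 libraries from 74.7 to 220 CPM with a median of 152. E2 libraries 12, 15 and 16 were above the lowest control library, and the other 6 were below every control library. The mean was 272 ± 47.5 CPM (SD, n = 10) in control and 152 ± 53.1 CPM (SD, n = 9) with E2, a log2 fold change of -0.83 (SE 0.18, edgeR adjusted p = 0.0135). A Casp1 read at 20000 reads was present in 76.9% ± 8.27 (SD, n = 10) of responsive control cells and, with E2, in 58.2% ± 10.5 (SD, n = 9), and in 84.7% and 65.5% without thinning.

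Depth and mitochondrial reads moved with the treatment. The median reads per responsive cell, averaged over libraries, were 149848 ± 25836 (SD, n = 10) in control and 116505 ± 18717 (SD, n = 9) with E2, and the median share of mitochondrial reads was 2.10% ± 0.245 and 2.41% ± 0.229. After thinning every cell to 20000 reads, Nfkbia (log2 fold change -0.86, SE 0.18), Tnfaip8 (-1.88, SE 0.33) and Casp1 (-0.72, SE 0.18) were still called lower, with edgeR adjusted p-values of 0.00393, 0.000392 and 0.0229. Each of the 3 was also called when any 1 of the 19 libraries was left out.

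**Figure D2:**
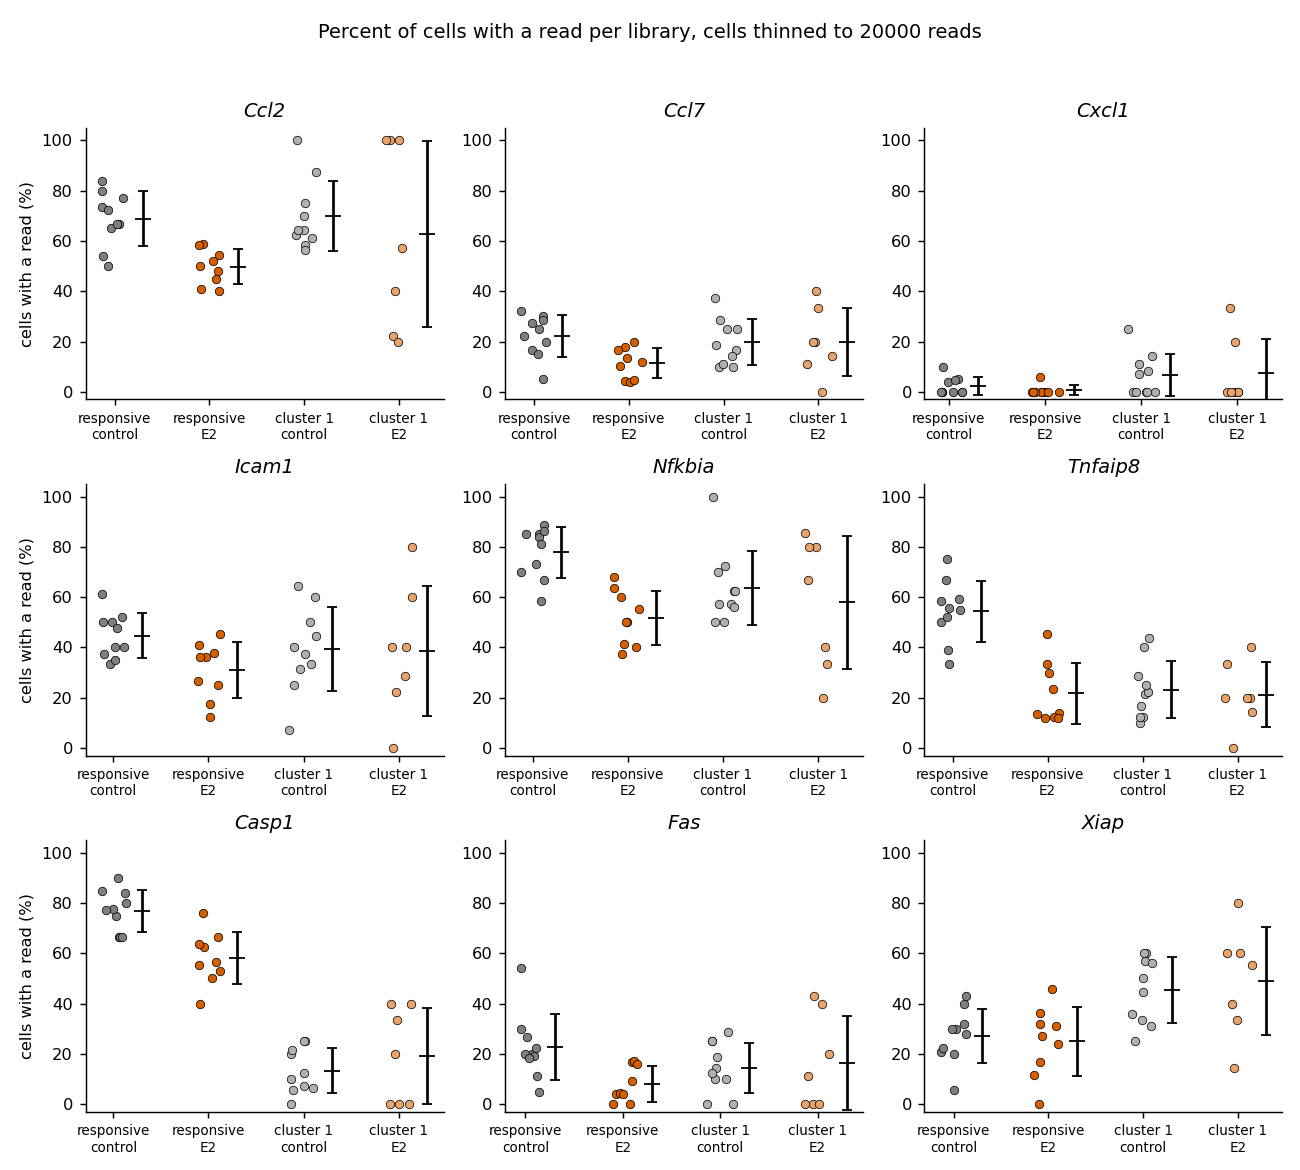
Percent of cells with at least 1 read of each gene, per library, after thinning every cell to 20000 reads. Points are libraries, control in grey and E2 in orange, with mean and SD beside them. For Tnfaip8 the share in responsive cells is 54.4% in control and 21.8% with E2, and for Casp1 it is 13.3% in cluster 1 control cells against 76.9% in responsive control cells.

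The chemokine genes Ccl2 and Ccl7, whose products draw monocytes into tissue, are neighbours on chromosome 11 with 8259 bases between them (chr11:82035571-82037453 and chr11:82045712-82047525). Ccl7 ran from 32.0 to 212 CPM with a median of 49.9 in responsive control libraries and from 6.27 to 50.6 CPM with a median of 17.7 in responsive E2 libraries. The E2 libraries were low, with 6 of 9 below every control library, but control library 9, at 212 CPM, stood far above the other controls. The means were 73.1 ± 54.7 CPM (SD, n = 10) and 24.8 ± 17.9 CPM (SD, n = 9), and the log2 fold change of -1.54 (SE 0.43) was not called (edgeR adjusted p = 0.0757). Without control library 9 it was -1.20 (adjusted p = 0.224), and without E2 library 12 it was -1.74 and was called (adjusted p = 0.0484). Ccl7 was called lower by DESeq2 (-1.54, adjusted p = 0.0125), which called 0.906% of genes lower, and by edgeR after thinning (-2.06, adjusted p = 0.00643), which called 0.901% lower.

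Ccl2 was not called. Its level ran from 347 to 1443 CPM with a median of 566 in responsive control libraries and from 249 to 767 CPM with a median of 560 in responsive E2 libraries, so the groups overlapped, with 4 of 10 control libraries above every E2 library and 2 of 9 E2 libraries below every control library. The log2 fold change was -0.48 (SE 0.25, edgeR adjusted p = 0.561), and 5 of 9 E2 libraries were below the control median. Without control library 9, the highest, it was -0.29 (adjusted p = 0.793). A Ccl2 read at 20000 reads was present in 68.9% ± 10.8 (SD, n = 10) of responsive control cells and, with E2, in 49.7% ± 6.93 (SD, n = 9), and in 87.7% and 68.1% without thinning. A protein-coding gene on the other strand overlaps Ccl2 and is not in the table. Over single cells the pair moved together to a limited degree, with a Spearman rho of 0.400 over 203 responsive control cells and 0.396 over 218 responsive E2-treated cells, all thinned to 20000 reads. Cells of a library share its preparation, and only 41 of the control cells and 22 of the E2-treated cells had a read of both.

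Cxcl1, which attracts neutrophils (chr5:90891241-90893115), was close to the limit of detection in responsive cells. A read was present in 9 of 203 control cells and 2 of 218 E2-treated cells, and the gene was at 0 in 5 of 10 control and 7 of 9 E2 libraries, where 3 counts, the limit taken for a count of 0, correspond to between 0.825 and 1.51 CPM. The highest control library, library 4, had 21.6 CPM, and the highest E2 library, library 11, had 10.6 CPM, with all 21 of its reads from 1 cell.

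Icam1 encodes an adhesion molecule by which leukocytes attach (chr9:21015985-21028817). It ran from 67.5 to 204 CPM with a median of 117 in responsive control libraries and from 56.5 to 104 CPM with a median of 85.2 in responsive E2 libraries. All 9 E2 libraries were below the control median and 7 of 10 control libraries were above every E2 library, but the lower controls overlapped with E2. The log2 fold change of -0.67 (SE 0.22) was not called (edgeR adjusted p = 0.182). An antisense gene overlaps Icam1.

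The death receptor gene Fas (chr19:34290666-34327772) ran from 24.2 to 76.3 CPM with a median of 29.6 in responsive control libraries. With E2 it ran from 0.344 to 54.5 CPM with a median of 16.1, and 7 of 9 libraries were below every control library. Single cells weighed heavily at this level, and in E2 library 15, the highest, 93.9% of the Fas reads came from 1 cell. The log2 fold change of -1.07 (SE 0.52) was not called (edgeR adjusted p = 0.506). Xiap, the caspase inhibitor gene (chrX:42059679-42109656), ran from 14.5 to 73.2 CPM with a median of 47.6 in responsive control libraries and from 3.96 to 63.5 CPM with a median of 31.4 in responsive E2 libraries. These ranges overlapped almost wholly, with a log2 fold change of -0.37 (SE 0.36, edgeR adjusted p = 0.861).

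**Figure D3:**
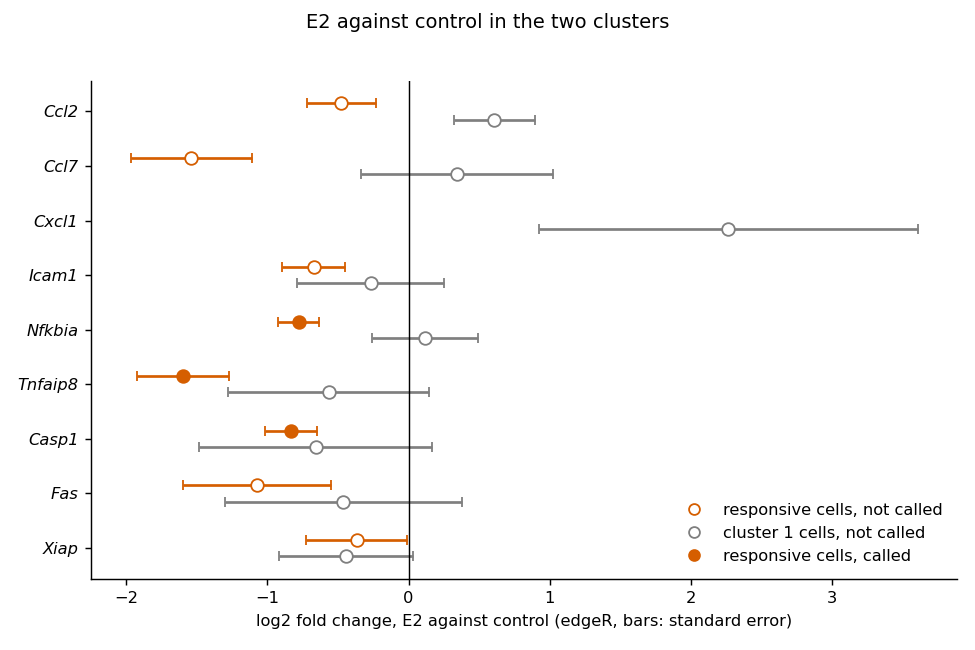
Log2 fold change of each gene between E2 and control (x axis) in responsive cells (orange) and cluster 1 cells (grey), with bars for the standard error. Filled points were called. The called genes are Nfkbia (-0.78), Tnfaip8 (-1.60) and Casp1 (-0.83) in responsive cells, and no gene in cluster 1 cells.

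In cluster 1 cells, as in responsive cells, the levels in the 2 conditions overlapped for every gene tested. None of the 9 was called by edgeR, and 1 had an unadjusted p below 0.05. Over all genes, 0.0839% of the 8340 tested were called by edgeR and 0.624% by DESeq2. The gene with the small p was Ccl2, which ran from 270 to 795 CPM with a median of 374 in control and from 253 to 970 CPM with a median of 590 in E2, a log2 fold change of 0.61 (SE 0.29, edgeR adjusted p = 0.655). DESeq2 and limma-voom called none of the 9 either, with 1 and 0 at an unadjusted p below 0.05.

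For the genes called in responsive cells, the cluster 1 estimates had wide errors. Nfkbia was at 172 ± 74.1 CPM (SD, n = 10) in control and 182 ± 108 CPM (SD, n = 7) with E2, with a log2 fold change of 0.12 (SE 0.37, edgeR adjusted p = 0.986). Tnfaip8 was at 45.2 ± 26.2 CPM and 29.5 ± 30.8 CPM (log2 fold change -0.57, SE 0.71, edgeR adjusted p = 0.945). Casp1 was at 25.8 ± 19.4 CPM and 15.9 ± 12.6 CPM (log2 fold change -0.66, SE 0.82, edgeR adjusted p = 0.945). These sums hold 3 to 9 cells per E2 library.

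Whether the effect of E2 differed between the clusters was tested as an interaction, and none of the 9 genes was called by edgeR, DESeq2 or limma-voom. Over all 11398 genes, edgeR called 0.184% and DESeq2 0.860%. The sums of both clusters come from the same libraries, and with the library as a block edgeR called 0 of 11250 genes, with 892 at an unadjusted p below 0.05. An unadjusted p below 0.05 was reached by 3 of the 9 with edgeR, 3 with DESeq2, 0 with limma-voom and 2 with the block. These were, with edgeR, Ccl2 (difference of log2 fold changes 1.04, SE 0.39, adjusted p = 0.282), Ccl7 (1.87, SE 0.76, adjusted p = 0.323) and Nfkbia (0.84, SE 0.37, adjusted p = 0.388), in each case with the higher fold change in cluster 1. For Casp1 the difference was 0.13 (SE 0.63, adjusted p = 0.979).

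Summed over all cells of a library, whatever their cluster, 2 of the 9 genes were called lower with E2, beside 0.484% of 10945 genes. These were Nfkbia (log2 fold change -0.53, SE 0.12, edgeR adjusted p = 0.0197) and Tnfaip8 (-1.30, SE 0.31, adjusted p = 0.0260). Casp1, at -0.45 (SE 0.20, adjusted p = 0.382), was not called in this comparison, in which cluster 1 cells make up 126 of 329 control cells and 42 of 260 E2-treated cells.

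The clusters differed widely in Casp1. Because they were made from the expression of these same cells, this is a description with no test. In control libraries Casp1 had a mean of 272 CPM in responsive cells and 25.8 CPM in cluster 1 cells, or 9.48% of that level, and in the 7 E2 libraries with both sums it had 146 CPM and 15.9 CPM, or 10.9%. It was lower in cluster 1 in 17 of 17 libraries. Among cells with a Casp1 read, the median count was 33.0 reads in responsive control cells and 1.0 read in cluster 1 control cells, and 51 reads, 13.6% of the total, came from 1 cluster 1 control cell of library 10.

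Tnfaip8 was lower in cluster 1 in 10 of 10 control libraries, where its mean was 32.4% of that in responsive cells, and in 5 of 7 E2 libraries. With condition as a covariate, the log2 difference of cluster 1 from responsive cells was -3.34 (SE 0.32) for Casp1 and -1.18 (SE 0.35) for Tnfaip8. Cxcl1 lay the other way, at 3.23 (SE 1.15), a fitted value for a gene at 0 in most responsive E2 libraries, and it was higher in cluster 1 in 4 of 10 control and 2 of 7 E2 libraries and lower in 4 and 2. Xiap was also above 0, at 0.67 (SE 0.28), and was higher in cluster 1 in 13 of 17 libraries. From these same cells the study had already named Xiap among genes of its E2-unresponsive cluster, so this is no independent support. A read of Xiap at 20000 reads was found in 45.3% ± 13.2 (SD, n = 10) of cluster 1 control cells and 27.1% ± 10.7 (SD, n = 10) of responsive control cells, and in 56.1% and 42.7% without thinning.

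**Figure D4:**
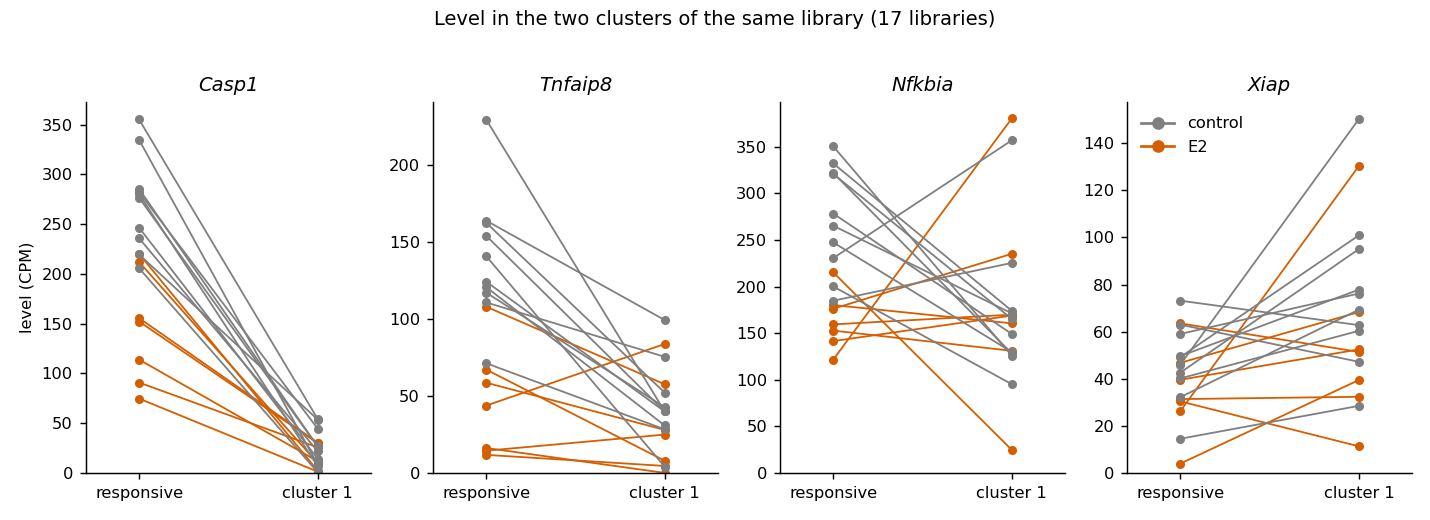
Level (CPM) of Casp1, Tnfaip8, Nfkbia and Xiap in responsive and cluster 1 cells, with a line joining the sums of the same library (10 control in grey, 7 E2 in orange). Casp1 is lower in cluster 1 cells in all 17 libraries and Tnfaip8 in 15, and Xiap is higher in 13.

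For the remaining genes the direction varied between libraries. Nfkbia was lower in cluster 1 in 8 of 10 control libraries and in 3 of 7 E2 libraries, and Ccl2 likewise in 8 of 10 and 3 of 7. Ccl7 was lower in cluster 1 in 7 of 10 control and 2 of 7 E2 libraries. Icam1 was higher in cluster 1 in 6 of 10 and 5 of 7, and Fas in 4 of 10 and 5 of 7. Cxcl1 reads were found in 13 of 126 cluster 1 control cells and 3 of 42 cluster 1 E2-treated cells, with 59 of the 98 reads of the latter from 1 cell of library 15.

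The trajectory states of the study give a finer view of the same cells, again as a description, with CPM here computed without TMM factors. Most responsive control cells were in state 2 (143 cells), most cluster 1 cells were in state 1 (126 control and 41 E2-treated), and responsive E2-treated cells were mainly in state 5 (151 cells) and state 4 (42 cells). Within the 8 E2 libraries with at least 3 responsive cells in both states, Casp1 was lower in state 4 in 7, with medians of 75.2 CPM in state 4 and 165 CPM in state 5, and Tnfaip8 was lower in 7, with medians of 17.6 and 43.6 CPM. Nfkbia was higher in state 4 in 6 of 8 (medians 182 and 122 CPM), and Ccl2 in 5 of 8 (medians 727 and 280 CPM). In state 2, the levels pooled over all responsive control cells were 280 CPM for Casp1, 279 CPM for Nfkbia and 129 CPM for Tnfaip8. State 4 also held 21 responsive control cells, with only 1 library of at least 3 such cells. Pooled over responsive cells of state 4, control and E2 were at 138 and 121 CPM for Casp1 and 173 and 177 CPM for Nfkbia. For Tnfaip8 they were at 172 and 36.6 CPM. The difference between conditions within state 4 was not tested.

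The same pathways were described with lists of known members, which include genes described above, such as Ccl7, Nfkbia, Tnfaip8 and Casp1. List values are therefore not independent of those genes. Of 8 chemokine genes tested in responsive cells, edgeR called 1 lower with E2, and 6 had a log2 fold change below 0 (median -0.75). DESeq2 called 2 of them lower, Ccl7 and Cxcl16. The one called by edgeR was Cxcl16, a transmembrane chemokine (log2 fold change -0.81, SE 0.21, edgeR adjusted p = 0.0417), with a mean of 152 ± 40.0 CPM (SD, n = 10) in control and 86.5 ± 29.9 CPM (SD, n = 9) with E2. None of 3 chemokine receptor genes tested was called by edgeR, DESeq2 or limma-voom, and none had an unadjusted p below 0.05 (median 0.05). Of 8 leukocyte adhesion genes, 1 was called lower, Vcam1, which binds integrins on leukocytes (log2 fold change -4.24, SE 0.94, edgeR adjusted p = 0.0140), and the list's median was -0.49. Vcam1 varied widely in control, from 0.636 to 118 CPM, and ran from 0.0 to 7.57 CPM with E2, and limma-voom did not call it.

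Among the genes of NF-kB itself the called gene stood alone. Of 21 subunits and inhibitors tested, 1 was called, Nfkbia, and 16 had a log2 fold change below 0 (median -0.17), beside 48.0% of all genes. None of 17 genes for TNF and IL1 receptors and their adaptors was called by edgeR, DESeq2 or limma-voom, and 1 had an unadjusted edgeR p below 0.05 (median 0.05). In the list of TNFAIP8 family and other TNF-induced proteins, 2 of 4 tested were called lower, Tnfaip8 and Tnfaip2. The mean of Tnfaip2 was 431 ± 117 CPM (SD, n = 10) in control and 185 ± 67.2 CPM (SD, n = 9) with E2 (log2 fold change -1.22, SE 0.20, edgeR adjusted p = 0.000778).

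Casp1 was likewise the one called gene of 8 inflammasome and pyroptosis genes, whose median was 0.03. None of 14 death receptor and extrinsic apoptosis genes was called by edgeR, where 2 had an unadjusted p below 0.05 (median 0.03), and 1, Tnfrsf21 (edgeR log2 fold change 1.79, SE 0.58, adjusted p = 0.168), was called higher by both DESeq2 and limma-voom. None of 20 intrinsic apoptosis genes (median -0.15) and none of 11 executioner caspase and IAP genes (median 0.13) was called by edgeR, DESeq2 or limma-voom, with 1 and 0 at an unadjusted edgeR p below 0.05. None of 20 interferon response genes was called by edgeR, DESeq2 or limma-voom, with 4, 5 and 3 at an unadjusted p below 0.05, and 15 lay below 0 (median -0.37). In cluster 1 cells no gene of these 11 lists was called by edgeR, DESeq2 or limma-voom, and between 0 and 2 genes per list had an unadjusted edgeR p below 0.05. In the interaction edgeR called none, with between 0 and 3 per list at an unadjusted p below 0.05, and DESeq2 called 1, Vcam1.

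Likeness to other genes was ranked over the 203 responsive control cells for the 6 genes with a read in at least 25% of them, as a description. Among 4488 genes so detected, the highest Spearman rho over cells thinned to 20000 reads was 0.316 with Casp1 (Cox7b), 0.309 with Nfkbia (Spats2l), 0.345 with Tnfaip8 (Sc5d), 0.370 with Ccl2 (Basp1), 0.275 with Icam1 (Ccl2) and 0.250 with Xiap (Atg7).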

How the data were processed

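Transcripts were quantified by the authors with kallisto (version 0.44.0 and build GRCm38 in the submitters' processing notes) and summed to genes with tximport. Estimated counts for each gene in each cell were deposited by the authors after their filters on cells and genes, with metadata that hold the percent of mitochondrial reads and the pseudotime score and state of each cell. Clusters are SC3 labels for 2 clusters, which the authors made from imputed values. The imputed values were not used here. Molecular identifiers are not named in the sources used here, and the limit of 3 counts covers counting error only. The authors kept only capture sites scored as 1 live cell, and no further doublet removal was made.

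Gene symbols and positions came from annotation release M21 of GRCm38, and upstream sequences from RefSeq. Counts were summed per library and cluster over at least 3 cells, and rounded. The sums were fitted in edgeR 4.0.16 (R 4.3.3) by quasi-likelihood after filterByExpr and TMM scaling, and p-values were adjusted by Benjamini-Hochberg over all genes tested. Standard errors were obtained from the log2 fold change and the F statistic, as |log2 fold change| / sqrt(F). The interaction of E2 and cluster was fitted over the sums of both clusters. The fits were tested on simulated data. Alternatives were DESeq2 1.42.0, limma-voom (limma 3.58.1), RLE factors, library totals, no gene filter, thinning, at least 5 cells, k-means labels without imputation (2 groups on 10 principal components), the library as a block, and leaving out each library. Genes and lists were chosen with earlier results of these data known. All 10 genes are named, and up to 4 called genes of each list. Tnfrsf21 was chosen after its values were seen.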

Additional observations from a re-analysis of the deposited data

Results flagged for a closer look

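In each group of 7 to 10 libraries, the highest and the lowest level of each gene were compared with the next library by Dixon's criterion. For normally distributed values, chance meets it in about 1 in 20 groups. CPM are bounded at 0, and Cxcl1 was at 0 in several libraries of each group, so this rate need not hold here. Of 36 groups, 10 met the criterion, and each time the highest library stood apart. This count is a description, and whether it exceeds chance was not tested. In responsive control cells these were Ccl7 in library 9, at 212 CPM with the next library at 104, and Cxcl1 in library 4, at 21.6 CPM with the next at 6.20. In responsive E2-treated cells it was Cxcl1 in library 11, at 10.6 CPM with the next at 0.329. In cluster 1 control cells, Ccl2 (795 CPM, next 539) and Ccl7 (115 CPM, next 47.1) both stood apart in library 6, Cxcl1 in library 5 (48.3 CPM, next 24.6) and Nfkbia in library 1 (357 CPM, next 225). In cluster 1 E2-treated cells, Ccl7 stood apart in library 19 (149 CPM, next 59.2), Cxcl1 in library 15 (291 CPM, next 79.6) and Fas in library 17 (50.8 CPM, next 20.6).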

How the results depend on the processing

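Nfkbia, Tnfaip8 and Casp1 were called lower in responsive cells under all 8 other settings and without each of the 19 libraries in turn. The setting of at least 5 cells could not alter these fits, because every responsive sum held 15 to 30 cells. Labels from k-means matched those of the study for 583 of 589 cells, so that setting changed little. Over the 8 settings the log2 fold change ran from -0.86 to -0.76 for Nfkbia (adjusted p 5.94e-05 to 0.00531), from -1.88 to -1.57 for Tnfaip8 (8.08e-05 to 0.00893) and from -0.88 to -0.72 for Casp1 (0.0013 to 0.0229). Ccl7 was called by DESeq2 (-1.54) and after thinning (-2.06), and ran from -1.74 to -1.20 without single libraries. Counts of called genes moved by over 1.5 times with DESeq2, to 234 in responsive cells, 52 in cluster 1, 318 over all cells and 98 in the interaction, from 141, 7, 177 and 21. In cluster 1, where 3 of the 7 were higher and 4 lower, the count was 4 with library totals (all lower), 1 without the gene filter, and 1 to 9 without single libraries. It was 1 without E2 library 11 or 19, 3 without E2 library 20, and 3 or 4 without any 1 of control libraries 1, 2, 3, 4, 5, 7, 8, 9 and 10. The median over all genes there was -0.06 with TMM and 0.05 with RLE factors. The interaction gave 13 genes with limma-voom, and blocking on the library left 0 (892 at an unadjusted p below 0.05). Signs of uncalled values turned in cluster 1 for Ccl7 with limma-voom (-0.16) and without E2 library 19 (range over single libraries -0.27 to 0.71), for Nfkbia after thinning (-0.038) and without E2 library 20 (-0.19 to 0.31), and for Casp1 with k-means labels (0.32). In the interaction the sign of Xiap turned with DESeq2 (0.044) and limma-voom (0.061). The cause was not tested. Between the clusters, the log2 difference of Ccl7 turned from -0.13 to 0.0011 with RLE factors and 0.013 with library totals, and the other 8 genes kept their sign under these and with k-means labels. No paired analysis was possible because control and E2 share no library numbers. In cluster 1, 7 E2 libraries of 3 to 9 cells each limit what can be detected.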
